A study of Mus musculus with 6 samples.

Results

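Adipocytes store fat as triglyceride and release it by lipolysis. Of 9 genes of this pathway chosen by name, the lipases, their protein regulators, the glycerol channel and the receptor that starts the process, 8 could be measured here. They are 8 of the 18193 genes with a value in the whole series. A gene was measured where the platform annotation assigned it, under its old or current symbol, probe sets with no second symbol (Ces1d was listed earlier as Ces3), and its value was the mean of those probe sets. Adrb3, which encodes the beta-3 adrenergic receptor of adipocytes, had no such probe set and is not analysed here. The samples were labelled as endothelial cells isolated from plugs of Matrigel, a basement membrane gel, that had been placed in Balb/c nude mice, in the peritoneal cavity. Nude mice lack a thymus and so mature T cells, but keep myeloid and B cells. In the MFAP5 group recombinant MFAP5, microfibrillar-associated protein 5, was added to the plug; it is a secreted component of elastic microfibrils. The control group had plugs in the same site and strain without it. There were 3 arrays per group, all Affymetrix Mouse Genome 430 2.0. The sources used here give no age, no time in the mouse, no dose, no method of cell isolation, and do not say whether each sample came from 1 animal. The p-values therefore measure the spread between these samples, which may be technical in part.

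In lipolysis, triglyceride on the surface of a lipid droplet loses its fatty acids one after another. Adipose triglyceride lipase (Pnpla2) removes the first, hormone-sensitive lipase (Lipe) the next, and monoglyceride lipase (Mgll) the last, which leaves glycerol. The coactivator Abhd5 and the inhibitor G0s2 both bind Pnpla2 and set its activity. Hormones act from the cell surface: beta-adrenergic receptors raise cAMP and activate protein kinase A, while insulin and receptors coupled to inhibitory G proteins restrain it. The pathway is best known from white and brown fat, and some of its genes are also active in liver, muscle, testis and leukocytes. G0s2 transcripts, for example, are abundant in neutrophils as well as in adipocytes.

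The deposited values were relative. They were centred so that the median of the 6 arrays was 0 for each probe set, and a positive number means above and a negative number below that median, and no level of a gene can be read. Where the groups of a probe set do not overlap, this centring makes the lowest control value and the highest MFAP5 value equal in size with opposite sign, so 0 itself has no meaning. All folds rest on reading the values as log2. Control replicate 1 differed from the other controls: across probe sets (not independent of each other) it correlated with them at -0.028 and 0.020, against 0.69 between control replicates 2 and 3. The bacterial spike-in probe sets had mean relative signals from -0.32 to 0.65 in the controls and from -0.038 to -0.0065 with MFAP5. Control replicate 1 gave the -0.32, and control replicates 2 and 3 were at 0.64 and 0.65, above every MFAP5 array.

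All 8 measured lipolysis genes fell with MFAP5, and in each of them every MFAP5 array lay below every control array. By limma on all genes, 2.79% were called lower at an adjusted p under 0.05, and in 17.8% of genes all MFAP5 values were below all control values. The median log2 difference of the 8 genes was -1.73, beside -0.079 over all genes. The differences ran from -0.80 for Abhd5 to -3.96 for G0s2, with adjusted p between 4.07e-04 and 0.00887. Without control replicate 1, which stood apart, all 8 still fell, with differences from -0.84 to -3.95 and adjusted p up to 0.0203. The control arrays held the 8 genes between 0.30 and 1.62, and the MFAP5 arrays between -3.81 and -0.37. In 7 of the 8 genes MFAP5 replicate 3 had the smallest drop of the 3 MFAP5 arrays and replicate 1 the largest. Fewer cells that express a gene and less of its RNA per cell cannot be told apart in such bulk samples.

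**Figure D1:**
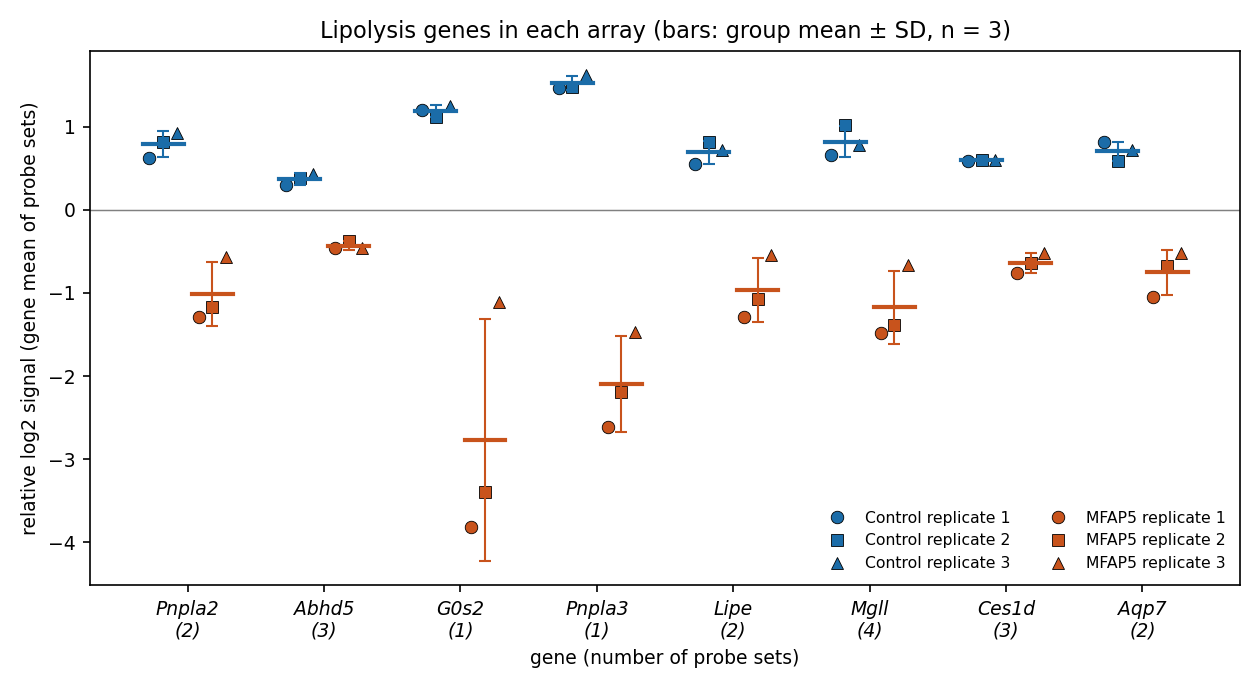
Relative log2 signal (y axis) of the 8 measured lipolysis genes (x axis, number of probe sets in brackets) in the 3 control and 3 MFAP5 arrays, with group mean ± SD as bars. Every MFAP5 point lies below every control point of its gene, and MFAP5 replicate 3 is the highest MFAP5 point in 7 of the 8 genes, and stands farthest from the other two in G0s2.

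Pnpla2, the lipase that starts triglyceride breakdown, stood at 0.62, 0.82 and 0.93 in control replicates 1, 2 and 3, and at -1.29, -1.17 and -0.57 in the MFAP5 arrays. The 3 controls lay close together, and MFAP5 replicate 3 dropped least. Its log2 difference was -1.80 ± 0.19 (SE, n = 3 per group; limma adjusted p = 0.00164). Both of its probe sets fell, by 2.29 (1428143_a_at) and by 1.30 (1428591_at). The smaller of these calls was lost without control replicate 2 (adjusted p = 0.0709) and without control replicate 3 (0.0707).

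Abhd5, also called CGI-58, activates Pnpla2 and has no lipase activity of its own against triglyceride. Its controls stood at 0.30, 0.39 and 0.44 and its MFAP5 arrays at -0.46, -0.37 and -0.46. As the mean of its probe sets it fell the least of the 8, by 1.75-fold. The log2 difference was -0.80 ± 0.096 (SE, n = 3 per group, limma adjusted p = 0.00301). It was also the gene in which the MFAP5 arrays agreed most: their SD was 0.051, and replicate 3 did not stand above the others. Its 3 probe sets were at -1.36 (1417566_at), -0.79 (1417565_at) and -0.26 (1447548_at), and the first alone, as the probe set of largest SD, would put the gene at -1.36. The last missed the threshold (adjusted p = 0.282), although its groups did not overlap. The middle one lost its call without control replicate 2 or 3 or MFAP5 replicate 1 or 3 (adjusted p between 0.0580 and 0.0915).

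G0s2, the small protein that blocks Pnpla2, had the deepest fall of the 8 genes. Its single probe set was at 1.20, 1.11 and 1.25 in the controls and at -3.81, -3.40 and -1.11 with MFAP5. The controls spread by an SD of 0.070 and the MFAP5 arrays by 1.45, since replicate 3 stayed far above the other two. The log2 difference was -3.96 ± 0.58 (SE, n = 3 per group; limma adjusted p = 0.00887), or 15.6-fold lower, with a 95% confidence interval from -5.30 to -2.62. Leaving out MFAP5 replicate 3 gave -4.79 and leaving out replicate 1 gave -3.44. The call was lost without control replicate 2 (limma adjusted p = 0.0510) or 3 (0.0546). It was also lost with a spike-in covariate (0.0569) and with a variance trend (0.177). The difference was negative in all 15 alternatives, which gave limma adjusted p from 8.95e-06 to 0.177. Most of these could not turn the sign, because the groups did not overlap.

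Because G0s2 is a transcript of neutrophils too, their markers belong beside it. Of 15 measured neutrophil markers 5 fell and none rose, with a median log2 difference of -0.39. The median over the list was 0.11, 0.41 and 0.38 in the control arrays against -0.41, -0.18 and -0.26 in the MFAP5 arrays. The 11 measured adipocyte markers had medians of 1.15, 1.18 and 1.12 in the control arrays against -1.77, -1.68 and -0.92 in the MFAP5 arrays. By these list medians MFAP5 replicate 3 was the highest MFAP5 array for the adipocyte markers, as it was for G0s2. For the neutrophil markers it was replicate 2, but single neutrophil markers differed from each other. In MFAP5 replicates 1, 2 and 3 Lcn2, which missed the threshold (limma adjusted p = 0.0572), was at -3.27, -2.80 and -0.43. S100a8, which was called, was at -1.05, -0.68 and -0.79. Among the 5 markers that fell, the highest MFAP5 array was replicate 1 in S100a9, replicate 2 in S100a8, Mmp8 and Clec4e, and replicate 3 in Mmp9. The part of either cell type in the G0s2 result was not tested.

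Pnpla3, a close relative of Pnpla2 that sits on lipid droplets and follows feeding in liver and fat, had the smallest p of the 8. Its single probe set was at 1.47, 1.48 and 1.62 in the controls and at -2.62, -2.19 and -1.47 with MFAP5. The gap between the lowest control and the highest MFAP5 array was 2.94, the widest of the 8 genes. It fell by 3.62 ± 0.25 (SE, n = 3 per group; limma adjusted p = 4.07e-04), or 12.3-fold, and 13 of the 18193 genes had a more negative difference. The call held in all 15 alternatives.

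Lipe, the diglyceride lipase that protein kinase A switches on, had gene values of 0.55, 0.82 and 0.72 in the controls against -1.29, -1.08 and -0.54 with MFAP5. The log2 difference was -1.66 ± 0.19 (SE, n = 3 per group; limma adjusted p = 0.00221). This mean joins probe sets that disagreed. 1422820_at was at 1.11, 1.52 and 1.43 in the controls and at -2.58, -2.00 and -1.11 with MFAP5, a fall of 3.25, whereas 1432180_at had a difference of -0.072 (95% confidence interval -0.33 to 0.19; adjusted p = 0.769) and overlapping groups. With the probe set of largest SD standing for the gene, Lipe was at -3.25.

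Mgll, which frees the last fatty acid and also degrades the endocannabinoid 2-arachidonoylglycerol, stood at 0.67, 1.02 and 0.78 in the controls and at -1.48, -1.38 and -0.67 with MFAP5. It fell by 2.00 ± 0.21 on the log2 scale (SE, n = 3 per group; limma adjusted p = 0.00174). Of its 4 probe sets 3 fell by similar amounts, 2.79 (1426785_s_at), 2.71 (1453836_a_at) and 2.45 (1450391_a_at). The 4th, 1431331_at, was at -0.036 (95% confidence interval -0.51 to 0.44; adjusted p = 0.943) with overlapping groups, although the annotation traces it to the same cDNA record as 1453836_a_at. Where probe sets whose names mark shared or alternative transcripts were set aside, 1431331_at alone stood for Mgll, and the gene was at -0.036 with no call (adjusted p = 0.938).

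Ces1d is a carboxylesterase of the endoplasmic reticulum that hydrolyses triglyceride in liver and fat. As the mean of its probe sets it had the steadiest controls, at 0.59, 0.60 and 0.60, with MFAP5 arrays at -0.76, -0.63 and -0.52. Its single probe sets were less steady, with control SDs of 0.17 (1449081_at), 0.12 (1435370_a_at) and 0.070 (1435371_x_at). The gene fell by 1.23 ± 0.10 (SE, n = 3 per group, limma adjusted p = 7.03e-04). Its 3 probe sets differed in size: 1449081_at fell by 2.67 and 1435370_a_at by 0.62, while 1435371_x_at was at -0.41 and missed the threshold (adjusted p = 0.0925). The call of 1435370_a_at was lost when any sample but control replicate 1 was left out (adjusted p between 0.0658 and 0.120). The Ces1 genes are near copies of each other, so signal of the probe set with an x in its name may come in part from relatives. As the median of its probe sets the gene was at -0.62, and as 1449081_at alone at -2.67.

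Aqp7, the aquaglyceroporin through which adipocytes release the glycerol of lipolysis, was at 0.81, 0.58 and 0.72 in the controls and at -1.05, -0.68 and -0.52 with MFAP5. The log2 difference was -1.46 ± 0.15 (SE, n = 3 per group; limma adjusted p = 0.00146). 1418848_at fell by 2.37, the value of the gene under the rule of largest SD, and 1418849_x_at was at -0.54 with groups that did not overlap and no call (adjusted p = 0.0709). That second probe set passed with array weights (limma adjusted p = 0.0334), with the spike-in covariate (0.0344) and without control replicate 1 (0.0423).

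Counted singly, 13 of the 18 probe sets fell, none rose, and 16 had all MFAP5 arrays below all controls. Over the 45037 probe sets tested, 1.72% were called lower by limma and 14.2% had such an order. All 18 differences were negative, and 11 were -1 or below. The 5 without a call belonged to Abhd5, Lipe, Mgll, Ces1d and Aqp7, each of which had at least 1 other probe set that fell. Since probe sets of 1 gene differed this much, a difference in size between 2 genes compares probes as well as transcripts.

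**Figure D2:**
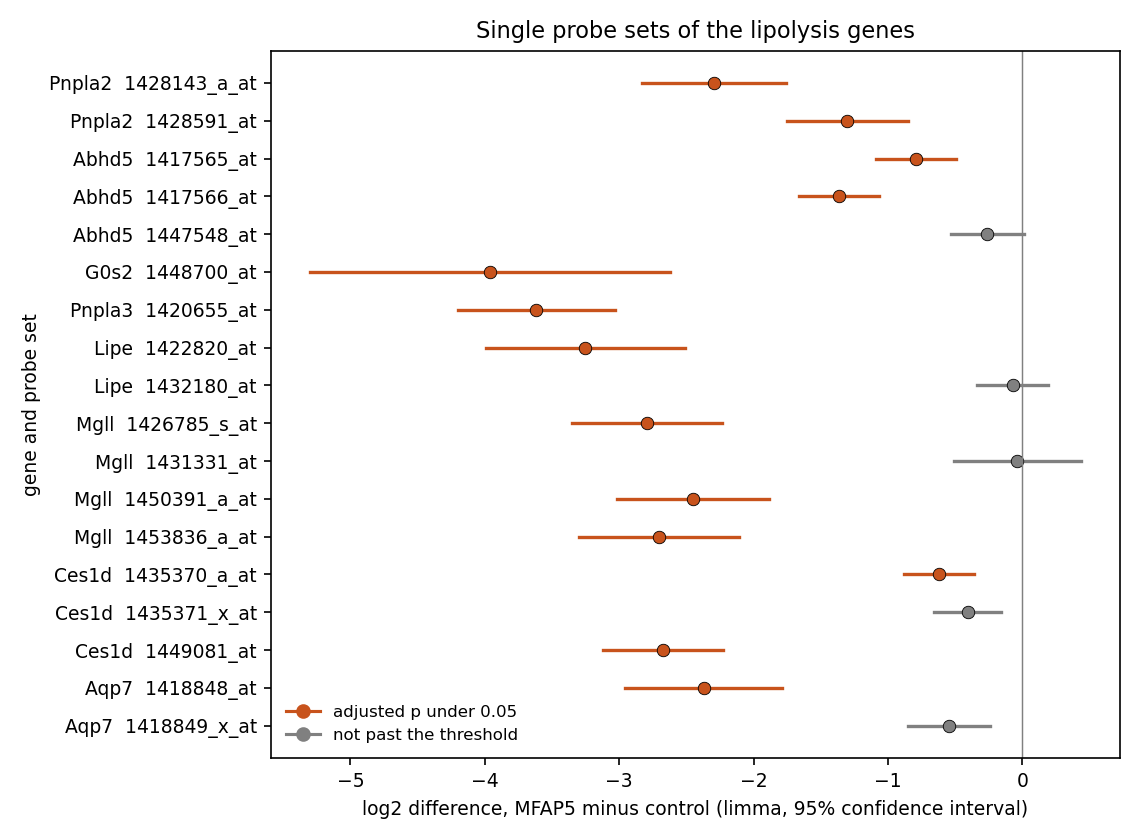
Log2 difference, MFAP5 minus control (x axis), of each of the 18 probe sets of the lipolysis genes (y axis), with the limma 95% confidence interval as a line and calls at an adjusted p under 0.05 in orange. The 13 called probe sets lie between -3.96 and -0.62, and 1 probe set each of Lipe and Mgll lies at about 0 beside others of the same gene below -2.

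The promoters of genes that fell together are shown for the pair of opposed Pnpla2 regulators, for Pnpla2 itself and for its relative Pnpla3. The sequences come from RefSeq (GRCm38.p6), which matched 7 of the 9 genes with 10 windows, each from 250 bases before to 50 after a transcript start, 5′ to 3′ on the gene's strand. Capitals mark exact matches, on either strand, to any of 5 motifs: the nuclear receptor half-site AGGTCA, the cAMP response element TGACGTCA, the CCAAT box CCAAT, the TATA box TATAAA and the GC box GGGCGG. TGACGTCA reads the same on both strands, so its 1 place counts on both; no other matches overlap in the windows printed here.
Pnpla2 (chr7:141454938-141455237, + strand): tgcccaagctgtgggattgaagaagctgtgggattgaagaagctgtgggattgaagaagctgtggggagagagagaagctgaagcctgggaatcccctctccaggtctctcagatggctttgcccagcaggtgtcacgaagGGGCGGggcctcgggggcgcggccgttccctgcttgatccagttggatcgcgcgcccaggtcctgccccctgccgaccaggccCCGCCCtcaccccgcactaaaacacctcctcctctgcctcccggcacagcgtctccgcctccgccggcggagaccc
Abhd5 (chr9:122351366-122351665, + strand): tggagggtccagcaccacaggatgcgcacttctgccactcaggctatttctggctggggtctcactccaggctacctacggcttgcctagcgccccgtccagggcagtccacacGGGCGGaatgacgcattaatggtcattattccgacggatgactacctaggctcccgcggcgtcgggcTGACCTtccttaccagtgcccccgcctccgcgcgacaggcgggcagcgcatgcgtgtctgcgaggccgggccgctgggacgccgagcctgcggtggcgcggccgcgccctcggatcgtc
G0s2 (chr1:193273139-193273438, - strand): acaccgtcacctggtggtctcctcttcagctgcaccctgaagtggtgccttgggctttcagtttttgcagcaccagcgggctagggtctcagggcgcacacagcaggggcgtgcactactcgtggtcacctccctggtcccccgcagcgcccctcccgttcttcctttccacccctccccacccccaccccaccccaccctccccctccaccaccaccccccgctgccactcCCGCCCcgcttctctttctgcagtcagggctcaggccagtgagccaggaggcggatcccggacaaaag
Pnpla3 (chr15:84167566-84167865, + strand): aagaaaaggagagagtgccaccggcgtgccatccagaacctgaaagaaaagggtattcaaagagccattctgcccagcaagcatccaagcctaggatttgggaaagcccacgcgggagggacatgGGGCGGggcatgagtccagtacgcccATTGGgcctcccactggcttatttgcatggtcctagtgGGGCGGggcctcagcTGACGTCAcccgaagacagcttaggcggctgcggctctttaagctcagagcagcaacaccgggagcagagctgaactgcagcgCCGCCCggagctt
GC boxes were found in 7 of the 10 windows of the lipolysis genes, against 35.7% of 32851 promoter windows of the same length. Their GC content ran from 49.7% to 72.3%, with a median of 52.7% over all windows. The nuclear receptor half-site was found in 3 windows, 1 of Abhd5 and 2 overlapping ones of Aqp7 (16.3% of all windows). Pnpla3 alone held the cAMP response element (1.79% of all windows) and a CCAAT box (37.4%), and no window held the TATA box (13.6%). A match is a description of letters and not a binding site.

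The falls were unequal within arrays. Each gene was set against Pnpla2, the enzyme at the head of the pathway, by subtracting the Pnpla2 value of the same array. G0s2 minus Pnpla2 was at 0.58, 0.29 and 0.32 in the controls and at -2.52, -2.23 and -0.54 with MFAP5, so the inhibitor lost more signal than the enzyme in every MFAP5 array, with a group difference of -2.16. Abhd5 minus Pnpla2 went the other way, from -0.33, -0.43 and -0.49 in the controls to 0.83, 0.79 and 0.11 with MFAP5, a group difference of 0.99. Pnpla3 minus Pnpla2 differed by -1.82, with controls between 0.66 and 0.85 and MFAP5 arrays between -1.33 and -0.90. The groups did not overlap in these 3 contrasts (exact permutation test, two-sided, p = 0.1 each, the smallest that 3 against 3 arrays allow; 0.125 after Benjamini-Hochberg adjustment over 15 contrasts). None could therefore pass a threshold of 0.05. Over 10 alternatives they stayed between -2.77 and -1.44 for G0s2, 0.50 and 1.23 for Abhd5, and -2.31 and -1.32 for Pnpla3. The 0.50 of Abhd5 came with plain probe sets preferred (exact permutation test, two-sided, p = 0.2).

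Lipe and Mgll kept closer to Pnpla2. Their contrasts were 0.13 and -0.20 with overlapping groups (exact permutation test, two-sided, p = 0.2 each), but turned to -0.96 for Lipe with the probe set of largest SD and to 1.27 for Mgll where 1431331_at stood for the gene. Aqp7 and Ces1d minus Pnpla2 were 0.34 and 0.56 and turned to -1.07 and -1.37 where a plain probe set was preferred, and to -0.079 and -0.38 with the probe set of largest SD. The order of Pnpla2, Lipe, Mgll, Ces1d and Aqp7 by size of fall thus followed the choice of probe set. So did the place of Abhd5 as the gene that fell least. With the median of probe sets Ces1d was at -0.62 and Abhd5 at -0.82. With plain probe sets preferred Mgll was at -0.036 and Abhd5 at -0.80.

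**Figure D3:**
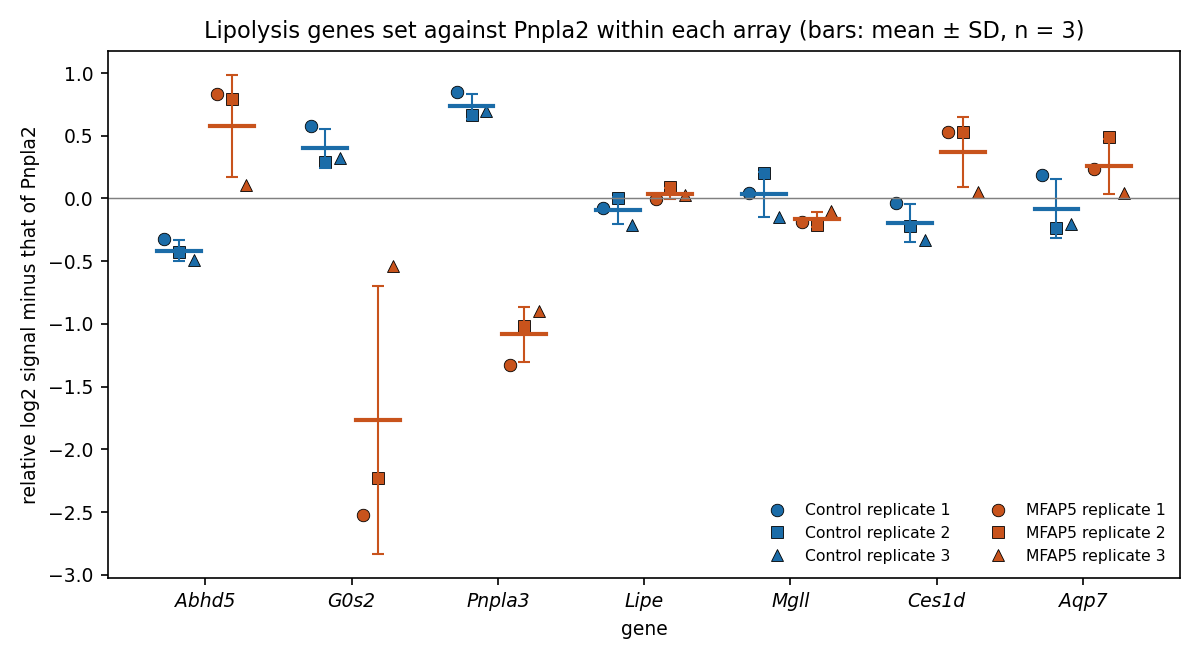
Relative log2 signal of each lipolysis gene minus that of Pnpla2 in the same array (y axis) for 7 genes (x axis), with group mean ± SD as bars. Abhd5 lies higher in all 3 MFAP5 arrays than in the controls, G0s2 and Pnpla3 lie lower, and the groups of Lipe, Mgll and Aqp7 overlap.

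The same arrays had lower adipocyte markers. The 11 measured markers were listed without the 9 lipolysis genes, but with earlier results of these data known. Of them 9 fell by limma, beside 2.79% of all genes, and all had a negative difference, with a median of -2.85. The other 2 were Adipoq, which encodes adiponectin, at -5.00 (limma adjusted p = 0.0598) and Cebpa at -0.58 (0.0614). Set against the marker median of its own array, G0s2 differed between the groups by -1.35 and Pnpla3 by -1.01, while Abhd5 differed by 1.80, Ces1d by 1.37, Aqp7 by 1.15, Lipe by 0.94, Pnpla2 by 0.81 and Mgll by 0.61. The groups did not overlap in these 8 contrasts either (exact permutation test, two-sided, p = 0.1 each). For Lipe and Ces1d the sign turned with another choice of probe sets, to -0.40 and -0.067. Mgll went to 0.054 with the median of probe sets and 0.063 with the probe set of largest SD, Aqp7 to 0.24 with plain probe sets preferred, and Ces1d to 0.18 with the probe set of largest SD (exact permutation p = 0.6, 0.8, 0.5 and 0.4). Quantile normalization put G0s2 at -0.72. Of the 14 endothelial markers limma called none in either direction, and their median difference was -0.18. With relative values the labelled cell type could not be checked by level. For beta-actin, the signal near the 3' end minus that near the 5' end, a sign of RNA quality, was from -0.053 to -0.0048 in the controls and from 0.036 to 0.14 with MFAP5 (exact permutation test, two-sided, p = 0.1). For Gapdh the same measure overlapped, from -0.16 to 0.033 in the controls and from -0.038 to 0.0855 with MFAP5 (exact permutation test, two-sided, p = 0.4). The part of adipocyte content or RNA quality in the falls of the lipolysis genes was not tested.

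Upstream of the lipases, 7 of 32 measured genes of adrenergic and hormonal control fell and none rose, with a median difference of -0.19. Over all genes 0.759% were called higher. Of the 7 that fell, Ffar4, Hcar1, Hcar2 and Gnai1 are known to restrain lipolysis. Gnai2 and Gnai3, which like Gnai1 encode inhibitory G protein subunits, were not called, at 0.0002 and 0.10 (limma adjusted p = 0.999 and 0.654). Neither were Ptger3 and Npy1r, receptors coupled to inhibitory G proteins, at -0.49 and -0.20 (limma adjusted p = 0.263 and 0.441). Ffar4, a receptor for long-chain fatty acids, was at -2.14 ± 0.15, Hcar1, the lactate receptor, at -1.96 ± 0.19, and Gnai1, an inhibitory G protein subunit, at -1.84 ± 0.20 (SE, n = 3 per group; limma adjusted p from 4.12e-04 to 0.00186). Tshr, the thyrotropin receptor, which stimulates lipolysis and was also counted among the adipocyte markers, was at -1.64, and Npr3, the clearance receptor of natriuretic peptides, at -1.17. The rest of the 7 calls, named after their values were seen, were Hcar2, the niacin receptor, at -2.25 and Prkar2b, the regulatory subunit of protein kinase A in fat, at -1.87. The catalytic subunit genes Prkaca and Prkacb were at -0.13 (adjusted p = 0.565) and 0.033 (0.884), short of the threshold, as was Pde3b, the phosphodiesterase by which insulin lowers cAMP, at -0.61 (adjusted p = 0.0504).

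On the lipid droplet, where the lipases work, 6 of 16 measured genes of the coat and its partners fell and none rose, with a median of -0.48. Cidec and Cidea, which act in droplet fusion, were at -5.35 ± 0.65 and -1.53 ± 0.14, and Plin4, a perilipin, at -4.03 ± 0.66 (SE, n = 3 per group; adjusted p by limma 0.00318, 0.00113 and 0.0146). Fitm2 and Bscl2, which act in droplet formation, were at -1.51 and -0.90. Plin5 and Plin2, coat proteins of oxidative and of many other tissues, were at -0.57 (adjusted p = 0.0598) and -0.34 (0.286), short of the threshold. The last of the 6 calls was Fabp4, a fatty acid carrier that binds Lipe, at -3.31 (adjusted p = 0.0440; named after its values were seen). Without control replicate 2 or 3 the list had 3 calls each, and Plin4 (adjusted p = 0.0820 and 0.0800) and Bscl2 (0.0573 and 0.0693) lost theirs. With a variance trend Plin4 (adjusted p = 0.190) and Cidec (0.119) did, as did Plin4 with a spike-in covariate (0.0845). Fabp4 lost its call in each of these settings. It also lost it without control replicate 1, with each array centred on its median and with the median of probe sets.

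Downstream, 5 of 11 measured genes that handle fatty acids and glycerol fell and none rose, with a median of -0.71. Gpd1 and Pck1, which make the glycerol phosphate used to re-esterify fatty acids, were at -2.20 ± 0.20 and -2.07 ± 0.28, and Ucp1, the uncoupling protein of brown fat, at -1.29 ± 0.20 (SE, n = 3 per group; adjusted p by limma 8.95e-04, 0.00566 and 0.0110). Cd36 and Fabp5, a fatty acid transporter and a binding protein, were at -1.52 and -0.87, close to the threshold (adjusted p = 0.0430 and 0.0444), and lost their calls in 9 and 8 of 15 alternatives (adjusted p up to 0.142 and 0.137). Ucp1 lost its call without control replicate 2 (adjusted p = 0.0530) or 3 (0.0669). Without control replicate 2 or 3 the list had 2 calls each, and without MFAP5 replicate 1 it had 3. Aqp3 and Aqp9, the other glycerol channels of the list, were at -0.069 and 0.23 and missed the threshold, where Aqp7 fell.

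Among other lipases and hydrolases of neutral lipid 3 of 31 measured genes fell and none rose, with a median of -0.18. Ces1f, a carboxylesterase of the same family as Ces1d, was at -2.17 ± 0.24, Angptl8, a secreted regulator of lipoprotein lipase, at -1.78 ± 0.20, and Abhd1 at -1.21 ± 0.20 (SE, n = 3 per group; adjusted p by limma 0.00212, 0.00238 and 0.0154). Lpl, lipoprotein lipase of the vessel wall, was at -0.96 and missed the threshold (adjusted p = 0.0508). It passed in 5 of 15 alternatives, among them without MFAP5 replicate 3 (-1.22, adjusted p = 0.00254). Without control replicate 1 the list had 5 calls, and without control replicate 2 or 3 it had 2 each. Abhd1 lost its call without those (adjusted p = 0.0879 and 0.0772) and with the spike-in covariate (0.0779). Ddhd1, a phospholipase, was at 0.38 with an adjusted p = 0.0641. Lipa, the lipase of lysosomes, was at 0.0023 (95% confidence interval -0.26 to 0.26). The Pnpla2 relatives Pnpla1, Pnpla5, Pnpla6, Pnpla7 and Pnpla8 lay between -0.28 and 0.048 and none passed by limma, with adjusted p of 0.231 or more.

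Of 15 transcription factors with known or proposed roles at lipase genes 4 fell and 1 rose, with a median of -0.31. Pparg, the nuclear receptor of adipocyte differentiation that drives Pnpla2, G0s2 and Aqp7, was at -2.45 ± 0.25, Srebf1, which drives Pnpla3, at -1.34 ± 0.14, and Nr1h3, the liver X receptor alpha, at -0.92 ± 0.12 (SE, n = 3 per group; adjusted p by limma 0.00146, 0.00164 and 0.00566). Snai1, a repressor of Pnpla2 transcription, was at -0.58 (adjusted p = 0.0171), and Egr1, another repressor of it, rose by 0.66 (0.0309). Snai1 lost its call without control replicate 2 or 3 or MFAP5 replicate 1 or 2 (adjusted p between 0.0520 and 0.0878). Egr1 lost its call in 6 of 15 alternatives, among them the arrays without control replicate 2 or 3 or MFAP5 replicate 1 or 3 (adjusted p between 0.0842 and 0.141). Foxo1, an activator of Pnpla2 in fasting, was at -0.34 and missed the threshold (adjusted p = 0.128).

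**Figure D4:**
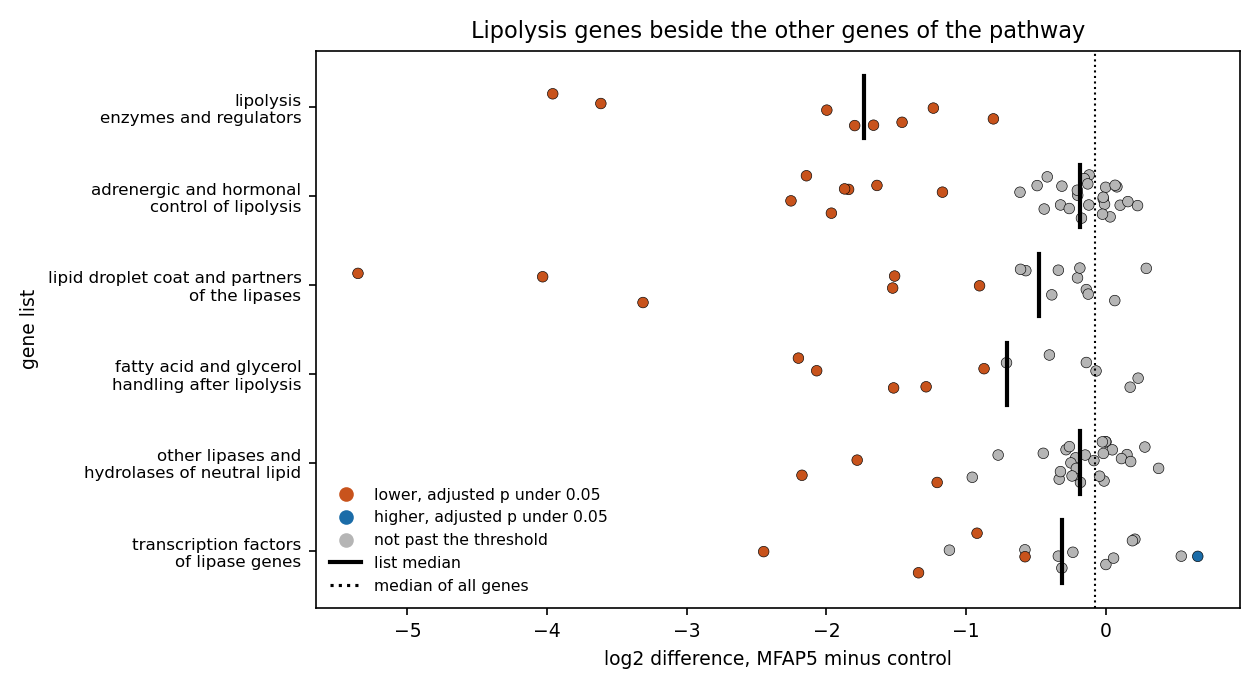
Log2 difference, MFAP5 minus control (x axis), of the 8 lipolysis genes and of 5 lists of other genes of the pathway (y axis), 1 point per gene. Black bars are list medians, from -1.73 for the lipolysis genes to -0.18, and the dotted line is the median of all genes at -0.079. All 8 lipolysis genes are called lower, whereas most genes of each other list are not called.

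Over the 5 lists 25 of 105 measured genes fell and 1 rose, with a median of -0.23. Without control replicate 1 there were 31 that fell and 4 that rose, while the genes called lower over the whole series went from 508 to 1914. The genes closest in pattern to the lipolysis genes, by the root mean square difference over the 6 arrays from the median of the 8, were Slc25a10, a mitochondrial dicarboxylate carrier (0.070), Fcor (0.097), Tshr (0.13), Fam110c (0.16) and Paqr9 (0.16), all called lower by limma. Slc25a10 was at 0.58, 0.86 and 0.84 in the controls and at -1.19, -1.04 and -0.58 with MFAP5. It had the spacing of Pnpla2 and Lipe, with MFAP5 replicate 3 nearest to the controls. Genes chosen for closeness to this pattern share its fall and spacing by that choice.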

How the data were processed

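RNA from 3 control and 3 MFAP5 samples was hybridized to 1-colour arrays, and the authors deposited 1 table of relative signals, read here as log2, for 45101 probe sets. MAS5 is named in the submitters' processing notes; the sources used here do not give how the values were scaled, logged and centred. Base 2, and that higher values mean more signal, were taken from the values. A natural log would make each log2 difference too small. No level could be read, so there was no filter on dim probe sets.

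The 64 control probe sets were left out, and 34945 of the other 45037 had 1 gene symbol in the platform annotation, updated through Entrez identifiers (RefSeq, GRCm38.p6). Groups were compared with limma 3.58.1 in R 4.3.3 (lmFit, eBayes, two-sided, Benjamini-Hochberg over all 18193 genes or all probe sets, threshold 0.05), and the script was tested on simulated data. Contrasts within an array were compared by exact permutation. The genes, lists and motifs were chosen with earlier results of these data known. From each list up to 5 genes with the smallest p were named, and the 5 genes of closest pattern; other names were added after values were seen. The lists for hepatocyte, mesothelial, macrophage, fibroblast, muscle and brown fat markers are reported among the additional observations.

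Alternatives were 2 normalizations, a variance trend, array weights, a replicate block, a spike-in covariate (14 probe sets), leaving out each sample, and 3 rules for joining probe sets.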

Additional observations from a re-analysis of the deposited data

How the results depend on the processing

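All 8 lipolysis genes kept a negative difference in each of the 15 alternatives run at gene level. Because no gene's groups overlapped, leaving out a sample, array weights, the variance trend and the replicate block could not turn the sign. In each alternative 7 or 8 genes passed the threshold, with G0s2 or Mgll the gene lost. Of their 18 probe sets 12 to 15 fell under 6 alternatives and 9 to 14 with 1 sample left out; 1431331_at of Mgll, which had no call, turned to 0.055 with array weights, 0.031 with quantile normalization, 0.039 with the spike-in covariate, and lay between -0.18 and 0.17 with 1 sample left out (above 0 without control replicate 2 or MFAP5 replicate 1). Among the other pathway genes 25 were lower, and 42 with array weights; with 1 sample left out there were 16 to 31, and 16 was without control replicate 3. The 1 higher pathway gene became 4 with array weights, 2 with median centring or quantile normalization, and 0 with the probe set of largest SD or the spike-in covariate, and 0 to 4 with 1 sample left out. Over all genes 508 were lower, 2879 with array weights, 316 with the spike-in covariate, 205 without control replicate 3 and 1914 without control replicate 1. Preferring plain probe sets turned the contrast with Pnpla2 to -1.07 for Aqp7, -1.37 for Ces1d, -0.36 for Lipe and 1.27 for Mgll, and Ces1d against the adipocyte median to -0.067. The probe set of largest SD turned Aqp7, Ces1d and Lipe against Pnpla2 to -0.079, -0.38 and -0.96, and Lipe against the adipocyte median to -0.40. It put Gpd1 at -4.75, Pck1 at -3.87, Tshr at -2.57 and Npr3 at -2.01. These follow from the choice of probe set itself; the causes of the other shifts were not tested. The labels give a replicate number and do not say whether samples with the same number belonged together. Deviations from the group means of samples with the same number correlated at 0.21, 0.055 and 0.085 over probe sets. For samples with different numbers the correlations lay between -0.15 and 0.084. Whether the numbers mark pairs was not tested. With the replicate block all 8 lipolysis genes fell, with adjusted p up to 0.00895, and calls among fatty acid and glycerol genes went from 5 to 3 and among other lipases from 3 to 5. With 3 arrays a group, their number and spread limit the precision.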

Other observations

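Markers of brown fat, where lipolysis fuels heat production, were lower in the same arrays. Of 8 measured brown adipocyte markers 6 fell by limma and none rose, with a median log2 difference of -1.10, beside -0.079 over all genes. Cox8b and Cox7a1, subunits of cytochrome c oxidase in muscle and brown fat, were at -2.81 ± 0.25 and -1.61 ± 0.11, and Ppargc1a, a coactivator of mitochondrial biogenesis, at -0.91 ± 0.11 (SE, n = 3 per group; adjusted p by limma 9.46e-04, 4.07e-04 and 0.00247). Dio2, a deiodinase that activates thyroid hormone, was at 0.52 with every MFAP5 array above every control array and missed the threshold (limma adjusted p = 0.210). Ucp1 and Cidea are on this list as well as on the pathway lists. The list medians of the arrays were 0.45, 0.64 and 0.79 in the control arrays against -0.40, -0.46 and -0.43 in the MFAP5 arrays. By these medians MFAP5 replicate 3 did not stand above the other MFAP5 arrays. In each of the 6 markers that fell, however, it was the highest MFAP5 array, as in Cox8b at -1.87, -1.82 and -0.97. In Dio2 and Elovl3, which were not called, it was the lowest.

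Hepatocytes, skeletal muscle, macrophages and leukocytes also express some of the lipolysis genes. Of 7 hepatocyte markers 1 fell, Cyp2e1, a cytochrome P450 that fat expresses too, at -1.96 ± 0.14 (SE, n = 3 per group; limma adjusted p = 4.07e-04), while Alb, which encodes albumin, was at -0.40 (adjusted p = 0.107). No skeletal muscle marker of 8 passed, with a median of -0.30. Of 12 macrophage markers 1 fell, the scavenger receptor gene Marco at -1.59 ± 0.16 (adjusted p = 0.00134), and the list median was -0.043. Of 8 fibroblast markers 1 fell, Pi16 at -0.93 ± 0.19 (adjusted p = 0.0336), against a list median of 0.27, and none of 8 mesothelial markers passed, with a median of -0.090.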
